A study of Mus musculus with 8 samples.

Results

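The Id genes Id1, Id2, Id3 and Id4 were followed through the deposited CUT&Tag peak lists of iMOP-derived neurons and proliferating iMOPs. The members were the 4 genes of that name among 21887 protein-coding genes in an mm10 gene table, and all 4 were found. A window of the gene span plus 50 kb either side of each gene held 27 of the 26724 peaks in the 6 lists, 8 of them from neurons and 19 from proliferating cells. A peak was assigned to a gene end when it came within 1 kb of either annotated end, to the gene body when it touched only the inside of the gene, and otherwise to the flank. By this rule 16 peaks were at a gene end, 0 in a gene body and 11 in a flank.

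Both states came from the same wild-type mouse line, immortalized multipotent otic progenitors (iMOPs), which grow as progenitors of the inner ear. The neurons were cells of that line kept in Neurobasal medium with N21 and L-glutamine (2 mM), to which K03861, an inhibitor of the cell cycle kinase CDK2, was added at 1 µM. Proliferating cells were kept in DMEM/F12 with B27, the antibiotic carbenicillin (25 µg/ml) and the mitogen bFGF at 20 ng/ml. In each state 1 library of 500000 cells was made for CHD4, for H3K4me3 and for p300, and 1 for the control antibody IgG. In CUT&Tag an antibody brings a transposase to its target, and the tagged DNA around it is sequenced. With 1 library per group, the differences below have no replicate check and no test. Whether several libraries were pooled into a list is not stated in the labels. The 2 IgG libraries were not analysed here and give no background level.

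Id proteins carry a helix-loop-helix domain without the basic region that binds DNA. They pair with E proteins such as TCF3, TCF4 and TCF12 and keep them from forming DNA-binding pairs with tissue-specific bHLH factors, among them the proneural factors that start neuronal differentiation. Id1, Id2 and Id3 are known as direct targets of BMP signalling through SMAD proteins and are commonly active in dividing progenitors. Id4 has a more divided role and can oppose other Id proteins in some cells. CHD4 is the ATPase of the NuRD remodelling and deacetylase complex, H3K4me3 marks active promoters, and p300 is a histone acetyltransferase of enhancers and promoters.

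The sequences just before the transcript start are shown because the strongest 50-bp position of CHD4 signal in neurons fell in them at Id2 and Id3. They are the 250 bases before the start from RefSeq (GRCm38.p6, the coordinates of mm10), 5′ to 3′ on the strand of the gene, and capitals mark that strongest position of neuron CHD4. At Id3 that position is in a peak of low height within its list, as given below. The Id4 stretch is shown for comparison, has no CHD4 peak and so no capitals. The last one lies at a second start inside E2f2, the next protein-coding gene beyond Id3, where CHD4 had the same strongest position in both states. The regions are chr12:25096093-25096342 (minus strand) for Id2, chr4:136143572-136143821 (plus) for Id3, chr13:48260866-48261115 (plus) for Id4 and chr4:136180532-136180781 (plus) for E2f2. Promoter entries were matched for 3 of the 4 members, and Id1 was the gene without one.
Id2: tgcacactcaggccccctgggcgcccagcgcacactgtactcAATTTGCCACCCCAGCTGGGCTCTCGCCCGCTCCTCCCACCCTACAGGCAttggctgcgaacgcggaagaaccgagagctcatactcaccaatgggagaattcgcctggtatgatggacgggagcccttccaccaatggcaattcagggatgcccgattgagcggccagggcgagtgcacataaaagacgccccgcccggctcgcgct
Id3: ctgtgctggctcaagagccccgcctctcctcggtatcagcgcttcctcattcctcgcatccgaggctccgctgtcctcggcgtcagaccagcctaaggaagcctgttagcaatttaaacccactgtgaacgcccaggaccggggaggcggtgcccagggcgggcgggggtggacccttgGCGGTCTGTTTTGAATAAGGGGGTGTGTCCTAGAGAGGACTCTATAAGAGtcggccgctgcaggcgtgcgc
Id4: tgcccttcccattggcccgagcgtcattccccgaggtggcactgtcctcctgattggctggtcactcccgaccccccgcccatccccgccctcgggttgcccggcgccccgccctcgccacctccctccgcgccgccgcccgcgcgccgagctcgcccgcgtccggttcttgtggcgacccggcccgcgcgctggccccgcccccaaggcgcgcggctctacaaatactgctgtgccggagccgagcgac
E2f2: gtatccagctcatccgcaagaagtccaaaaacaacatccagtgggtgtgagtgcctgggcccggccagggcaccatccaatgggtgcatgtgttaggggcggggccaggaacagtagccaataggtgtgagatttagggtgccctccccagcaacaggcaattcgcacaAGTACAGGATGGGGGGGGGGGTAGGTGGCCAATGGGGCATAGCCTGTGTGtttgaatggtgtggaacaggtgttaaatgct

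The lists differ in length, which bears on every absence below. Neurons had 4599 CHD4, 5625 H3K4me3 and 965 p300 peaks, and proliferating cells had 4919, 7472 and 3144. Read depth is unknown, so a gene without a listed peak is one whose signal did not pass the authors' threshold. As a check of the labels, the progenitor marker Sox2 had H3K4me3 at a gene end in both states, Eya1 in proliferating cells only, and Pax2, Pax8 and Gata3 in neither. Of the neuron markers, Tubb3 and Map2 had H3K4me3 in both states and Elavl3 in neurons only, while Neurod1, Dcx and Nefl had none in either. Of 12 markers of hair cells, glia, mesenchyme and blood, Cd68 alone had H3K4me3, in proliferating cells only.

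Id1, Id2 and Id3 carried CHD4 at a gene end in both states, and Id4 in neither, whereas 7.49% of all genes had it in both states. Among all protein-coding genes, 9.95% had CHD4 at a gene end in neurons (95% exact binomial interval 9.55 to 10.4) and 11.8% in proliferating cells (11.3 to 12.2). The intervals cover counting error only. The promoter mark H3K4me3 was listed at an end of 3 of 4 Id genes in neurons and 4 of 4 in proliferating cells, against 30.0% and 37.6% of all genes. The exception in neurons was Id3. Thus 3 Id genes had the mark in both states, as did 29.4% of all genes, and 1 in proliferating cells only, as did 8.21%. For p300 the counts were 0 of 4 in neurons and 3 of 4 in proliferating cells, where Id4 was the one without it, against 1.24% and 8.44% of all genes. The 3 with p300 in proliferating cells only compare with 7.54% of all genes.

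Most genes marked like these in proliferating cells also had no p300 call in neurons. All 3 antibodies marked an end of 1443 genes in proliferating cells, 6.59% of all genes, and Id1, Id2 and Id3 were among them. Of these 1443 genes, 10.5% still had p300 at an end in neurons (9.0 to 12.2), as did 0 of the 3 Id genes. CHD4 was still listed in neurons at 79.3% of them (77.1 to 81.3) and at 3 of the 3 Id genes. H3K4me3 was still listed at 88.1% (86.4 to 89.8) and at 2 of the 3. With the p300 lists trimmed to equal size by total signal, Id3 alone of the 4 genes had p300 in proliferating cells, and none had it in neurons. The p300 calls at Id1 and Id2 thus cannot be told apart from the difference in list length. For Id3 the trimming shows only a high rank in proliferating cells. Whether its absence from the neuron list reflects the threshold was not tested.

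**Figure D1:**
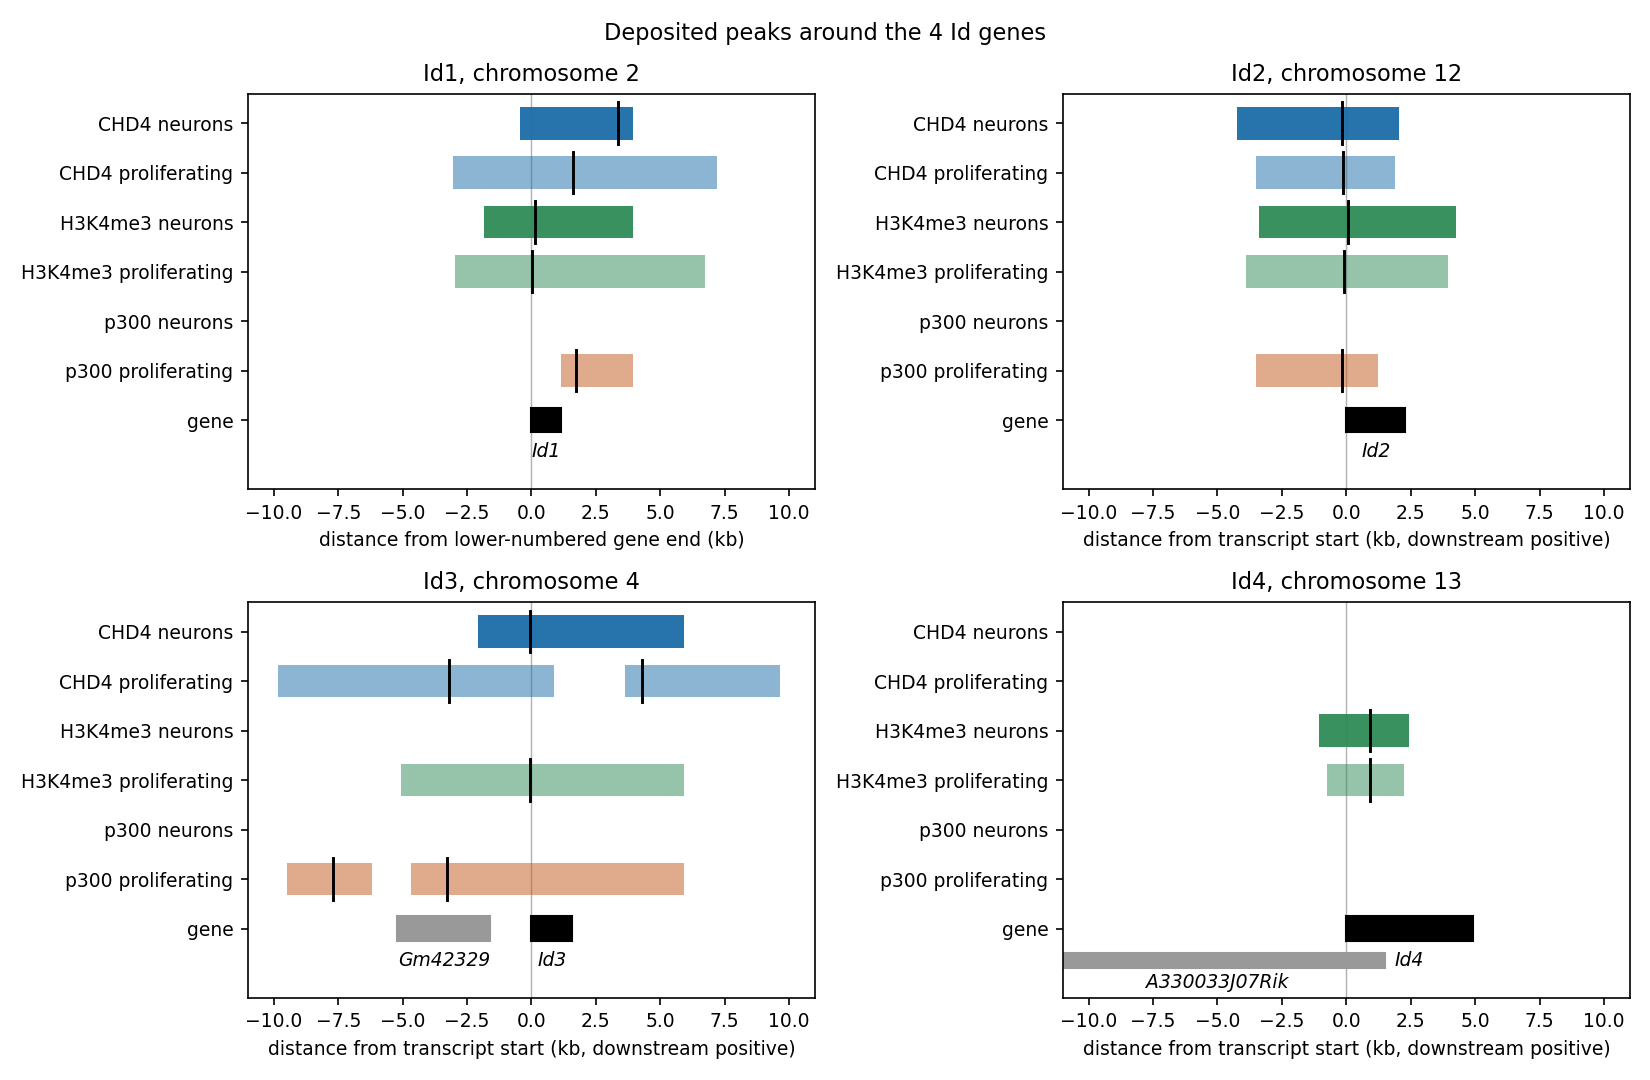
Each panel shows 1 Id gene, with distance from its transcript start in kb on the horizontal axis (from the lower-numbered end for Id1) and the 6 lists as rows, neurons above proliferating cells for each antibody. Bars are deposited peaks and black ticks their strongest 50-bp position. Black boxes are the Id genes, grey boxes the non-coding genes Gm42329 and A330033J07Rik. Neuron p300 rows are empty in all 4 panels, and the Id4 panel holds H3K4me3 only.

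At Id1 (chromosome 2, 152736251 to 152737410), an inhibitor of the muscle factor MyoD among others, peaks of both CHD4 and H3K4me3 covered the whole gene in both states and were narrower in neurons. The CHD4 peak spanned 4400 bp in neurons (152735801 to 152740200) and 10250 bp in proliferating cells (152733201 to 152743450), a ratio of 0.429. The neuron peak lay entirely inside the proliferating one. The H3K4me3 peak spanned 5800 bp in neurons (152734401 to 152740200) and 9700 bp in proliferating cells (152733301 to 152743000), again with the neuron peak entirely inside.

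The strongest position of CHD4 at Id1 was not at the same place in both states, whereas that of H3K4me3 nearly was. It lay 3350 bp from the lower-numbered gene end in neurons and 1600 bp from it in proliferating cells, in both cases beyond the other end of the gene. The strongest H3K4me3 was 100 bp inside the gene in neurons and at the lower-numbered end itself, within the 50-bp step, in proliferating cells. The proliferating p300 peak (152737401 to 152740200, 2800 bp) touched the gene by 10 bp only. Its strongest position was 100 bp from that of proliferating CHD4 and 1700 bp from that of H3K4me3. At Id1, therefore, the strongest CHD4 and p300 positions lay close together beside the gene in proliferating cells, and that of H3K4me3 lay elsewhere. The H3K4me3 peak still covered the whole p300 peak. These peaks were below the middle of their lists by highest signal, at the percentiles 31.2 for CHD4, 28.8 for p300 and 11.5 for H3K4me3. No peak of any list was found in the 50-kb flanks of Id1. The nearest outside them were in Bcl2l1, an inhibitor of apoptosis, where neurons had a p300 peak of 2150 bp at 55441 bp from Id1 and a CHD4 peak of 2950 bp at 55891 bp.

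At Id2 (chromosome 12, 25093799 to 25096092, minus strand), which also binds the retinoblastoma protein family, CHD4 and H3K4me3 were listed over similar extents in both states and p300 in proliferating cells only. The CHD4 peak spanned 6300 bp in neurons (25094051 to 25100350) and 5400 bp in proliferating cells (25094201 to 25099600), a ratio of 1.17, and the neuron peak contained the proliferating one. The H3K4me3 peak spanned 7650 bp in neurons (25091851 to 25099500) and 7850 bp in proliferating cells (25092151 to 25100000), with 7350 bp in common. The p300 peak of proliferating cells spanned 4750 bp (25094851 to 25099600) and had the same upstream edge as the proliferating CHD4 peak.

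All strongest positions at Id2 gathered at the transcript start. For CHD4 it lay 159 to 208 bp before the start in neurons, the capitals in the sequence above, and 109 to 158 bp before it in proliferating cells. The strongest p300 of proliferating cells fell on the same 159 to 208 bp as the neuron CHD4. H3K4me3 was strongest from 42 bp inside the gene in neurons and 59 to 108 bp before the start in proliferating cells. As at Id1, no list had a peak in the flanks of Id2.

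At Id3 (chromosome 4, 136143822 to 136145392, plus strand), CHD4 was listed in both states while H3K4me3 and p300 were listed at the gene in proliferating cells only. Over all genes, 0.772% had CHD4 at an end in both states together with H3K4me3 in proliferating cells only. The CHD4 peak spanned 8000 bp in neurons (136141751 to 136149750) and 10700 bp in proliferating cells (136134001 to 136144700). The neuron peak covered the whole gene, and the proliferating one covered 56.0% of it and reached 9821 bp upstream. The 2 overlapped by 2950 bp. In addition, the neuron peak overlapped a second proliferating CHD4 peak (136147451 to 136153450) beyond the other end of the gene, by 2300 bp.

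The strongest CHD4 at Id3 was 22 to 71 bp before the transcript start in neurons, and 3172 bp before it in proliferating cells. The proliferating position fell in the non-coding gene Gm42329 (136138595 to 136142218), for which the tables give no strand. The proliferating p300 peak of 10600 bp (136139151 to 136149750) was strongest 3272 bp before the start, 100 bp from CHD4. The H3K4me3 peak of proliferating cells spanned 11000 bp (136138751 to 136149750) and was strongest on the same 22 to 71 bp before the start as CHD4 in neurons. So the neuron CHD4 peak was highest at the place where proliferating cells had their highest H3K4me3, and where no H3K4me3 was listed in neurons. That neuron CHD4 peak was itself low: by highest signal, only 7.22% of the peaks in its list were no higher.

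The Id3 flanks held all 11 flank peaks of the family. In proliferating cells they were 4 CHD4, 4 p300 and 1 H3K4me3 peaks, and in neurons 1 CHD4 and 1 H3K4me3 peak. Counting the gene itself, the Id3 window had 2 CHD4 peaks in neurons and 5 in proliferating cells. At least 5 CHD4 peaks stood in the window of 0.964% of all genes in proliferating cells, and of 1.01% of genes of at most 10 kb. The windows of the other 3 Id genes held at most 1 CHD4 peak in either state. CHD4 was listed in the window of 30.0% of all genes in neurons and 34.2% in proliferating cells, and of 3 Id genes in each state. H3K4me3 was listed in the window of all 4 Id genes in each state, against 51.7% and 59.6% of all genes. For p300 the windows were 0 in neurons and 3 in proliferating cells, against 7.25% and 26.9%.

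Upstream of Id3, CHD4 peaks of proliferating cells were strongest 38522 bp (136103551 to 136107200, 3650 bp) and 33072 bp (136108201 to 136113300, 5100 bp) before the start. No annotated gene overlapped either, and neither was listed in neurons. The farther one overlapped a p300 peak of 2450 bp (136103901 to 136106350), strongest 100 bp away, and the nearer one had neither p300 nor H3K4me3. A further p300 peak (136134351 to 136137650, 3300 bp) lay inside the large proliferating CHD4 peak at Id3. Neither these 2 CHD4 peaks nor the 2 p300 peaks overlapped H3K4me3.

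Downstream of Id3, apart from the proliferating CHD4 peak just beyond the gene (136147451 to 136153450), the peaks of the window lay at E2f2, a transcription factor of S-phase entry and the other protein-coding gene in the window (136172274 to 136196057). The peaks at E2f2 are nearer to that gene than to Id3 and are counted here because the rule takes in 50 kb. CHD4 there spanned 10600 bp in neurons (136171401 to 136182000) and 12200 bp in proliferating cells (136169801 to 136182000), with the same right edge. In both states it was strongest at 136180701 to 136180750, which is 32 to 81 bp before the second E2f2 start, the capitals of the E2f2 sequence. The p300 list of proliferating cells had the same strongest position, in a peak of 2400 bp. A wider p300 peak of these cells in E2f2 (136173801 to 136178850, 5050 bp) was strongest elsewhere, at 136177701 to 136177750. H3K4me3 was strongest at 136172851 to 136172900 in both states, near the first E2f2 start, in peaks of 7450 bp in neurons and 12100 bp in proliferating cells. In neurons H3K4me3 was thus listed at E2f2 and not at Id3.

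**Figure D2:**
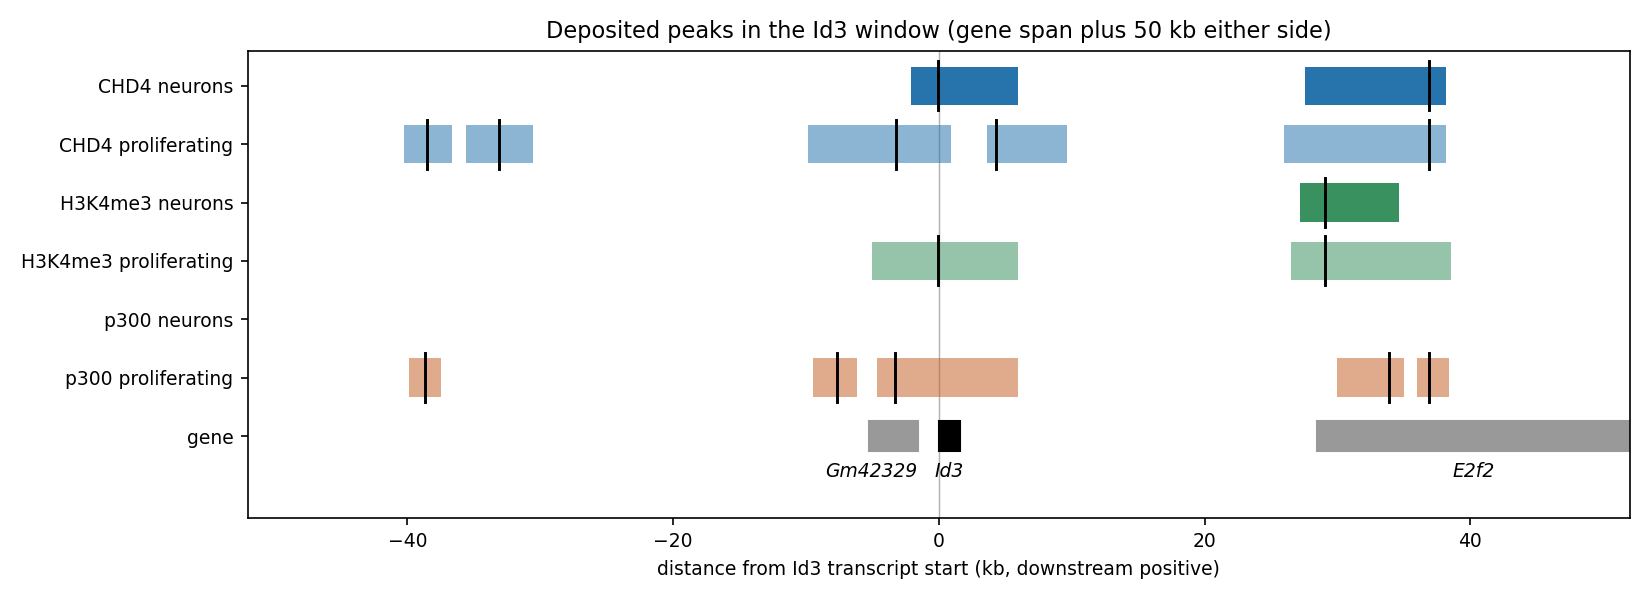
The horizontal axis is distance from the Id3 transcript start in kb, and the rows are the 6 lists, neurons above proliferating cells for each antibody; bars are peaks and ticks their strongest position. Neurons have 2 CHD4 peaks, at Id3 and at E2f2, and 1 H3K4me3 peak, at E2f2. Proliferating cells have 5 CHD4, 2 H3K4me3 and 5 p300 peaks. Grey boxes are E2f2, drawn up to the edge of the plot, and Gm42329.

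At Id4 (chromosome 13, 48261116 to 48266028, plus strand), H3K4me3 was the only antibody listed, in both states. The peak spanned 3500 bp in neurons (48260051 to 48263550) and 3000 bp in proliferating cells (48260351 to 48263350), and the neuron peak contained the proliferating one. Both were strongest at 48262001 to 48262050, which is 885 bp inside Id4 and not in the promoter stretch printed above. That position also lies in the non-coding gene A330033J07Rik, which runs the opposite way and starts at 48262623 within Id4. Marks at the start of Id4 and at the start of A330033J07Rik cannot be told apart here. With H3K4me3 alone in both states, Id4 shared its calls with 4165 genes, 19.0% of all. The proliferating peak ranked 6102 of 7472 by total signal and was not kept with lists of equal size.

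Within their lists, the Id peaks covered the range from weak to strong. Each peak was placed by its percentile of total signal, the share of peaks in its own list with no more signal. For CHD4 at Id1 the percentile was 54.9 in neurons and 90.5 in proliferating cells. For Id2 it was 68.9 in neurons and 77.8 in proliferating cells, and for Id3 47.6 in neurons and 94.1 in proliferating cells. By total signal the 3 genes thus stood in the middle of the neuron list and in the upper part of the proliferating list, with Id2 first in neurons and Id3 first in proliferating cells. By mean signal, which is total signal per bp, the direction of the median turned, at 48.5 in neurons and 36.5 in proliferating cells. Not every gene turned. Id1 was at 60.2 in neurons and 23.3 in proliferating cells, and Id2 at 48.5 and 42.3. Id3 kept the direction, at 11.5 in neurons and 36.5 in proliferating cells. By total signal the median was 54.9 in neurons and 90.5 in proliferating cells over the 3 Id genes with a peak. Over all genes with CHD4 at an end it was 49.6 in neurons and 44.0 in proliferating cells. Percentiles come from lists of different lengths and do not measure a change in binding.

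For H3K4me3, Id2 stood at the percentile 80.1 in neurons and 88.9 in proliferating cells, and Id1 at 40.3 and 59.8 in the same order. Id4 was near the bottom, at 11.9 in neurons and 18.3 in proliferating cells. Id3 had no peak in neurons and stood at 93.3 in proliferating cells, the top of the 4. The median of the Id genes with a peak was 40.3 in neurons and 74.4 in proliferating cells, against 55.2 and 56.1 over all genes with H3K4me3 at an end. For p300 in proliferating cells, Id3 stood at 92.8, Id2 at 66.7 and Id1 at 48.9, with a median of 66.7 against 52.6 over all genes with p300 at an end. By total signal Id3 led all 3 lists of proliferating cells among the Id genes, whereas by mean signal it led none of them, and for p300 Id1 was first at 56.9.

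**Figure D3:**
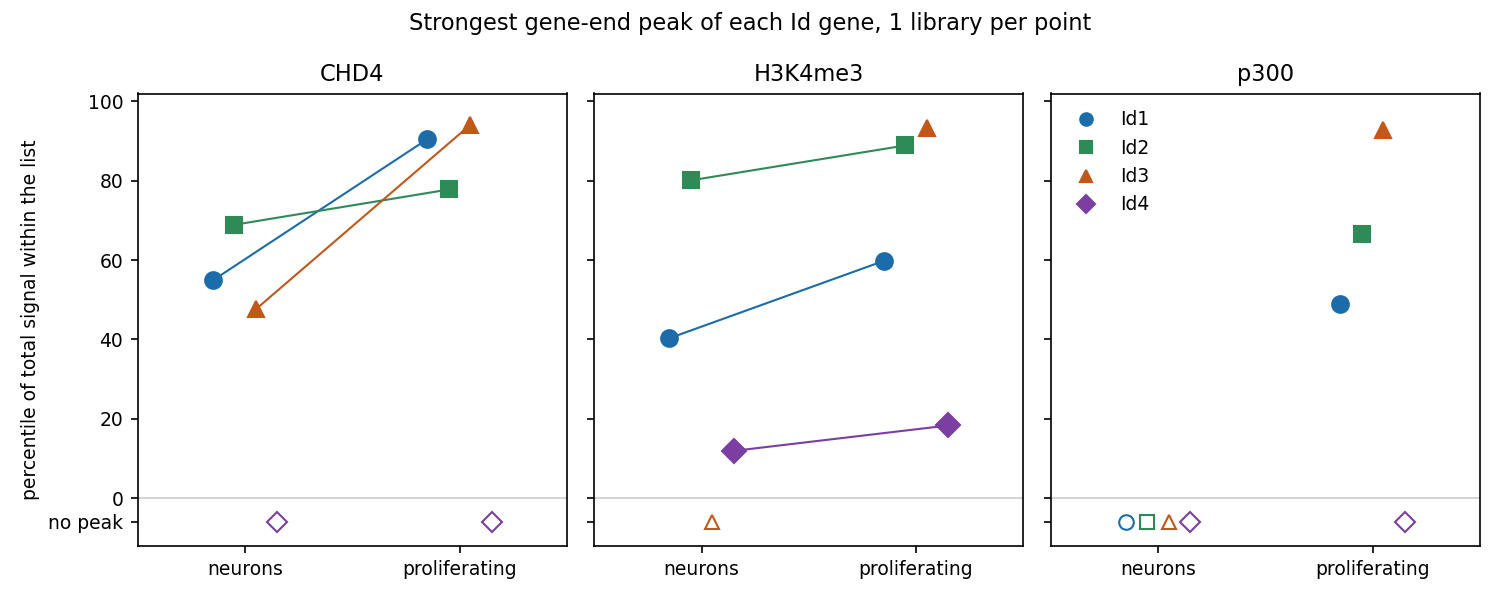
The vertical axis is the percentile of total signal of each gene's strongest gene-end peak within its own list, with neurons left of proliferating cells in each panel. A point is 1 gene in 1 library, open points are genes with no listed peak, and lines join a gene listed in both states. By this ranking every joined pair sits lower in neurons, and Id3 is highest of the 4 genes in each proliferating list. Other rankings turn some pairs: by highest signal CHD4 at Id2 is at 54.0 in neurons and 38.0 in proliferating cells, by mean signal CHD4 at Id1 is at 60.2 in neurons and 23.3 in proliferating cells, and by width H3K4me3 at Id4 is at 27.5 in neurons and 25.7 in proliferating cells.

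The Id peaks ranked higher by width than by height, a feature noticed in the values and not tested. Among their 16 gene-end peaks the median percentile was 81.6 by width and 30.0 by highest signal. In all 16 the width percentile was above that of the highest signal. The same held for 47.5% to 57.7% of the strongest gene-end peaks of all genes, over the lists that held an Id gene-end peak. The 16 peaks come from 4 genes and are not independent. The H3K4me3 peak at Id1 in proliferating cells had the widest gap, at the percentile 97.8 by width and 11.5 by highest signal. CHD4 at Id3 in neurons, at 77.9 by width and 7.22 by highest signal, was of the same kind. The narrowest gaps were those of p300 at Id1 in proliferating cells, at 35.3 and 28.8, and of CHD4 at Id2 in neurons, at 64.5 and 54.0. As total signal grows with width, the ranks by total signal given above rest in part on breadth.

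**Figure D4:**
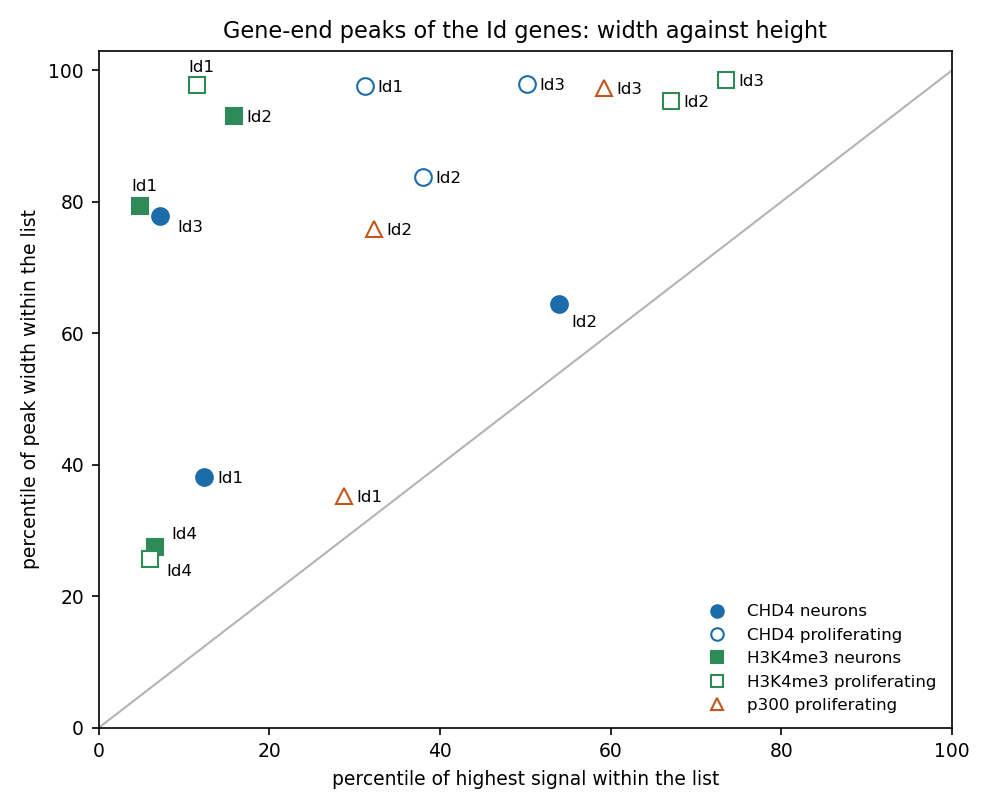
Each point is a gene-end peak of an Id gene, placed by its percentile of highest signal (horizontal) and of width (vertical) within its own list; filled points are neurons, open points proliferating cells. All 16 points lie above the diagonal of equal percentiles; p300 at Id1 in proliferating cells, at 28.8 and 35.3, is nearest to it, and H3K4me3 at Id1 in proliferating cells, at 11.5 and 97.8, is farthest.

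Measured by which of the 6 lists had a gene-end peak, Id1 and Id2 shared 1 pattern, with 5 of 6 lists and only neuron p300 missing. It was held by 884 genes, 4.04% of all. The pattern of Id3, which also lacked neuron H3K4me3, was held by 108 genes, 0.493%. Likeness was further measured as the Euclidean distance between the 6 percentiles of total signal, with 0 for no peak, over the 6 libraries. Nearest to Id2 was Rhob, a small GTPase gene, at a distance of 4.24, with CHD4 at 68.6 in neurons and 75.9 in proliferating cells. H2az1, the pair Acoxl and Bcl2l11, which had the same percentiles in all 6 lists, and Adamts1 followed at 11.1 to 11.3.

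Nearest to Id3 were N4bp3 at 11.3, the neighbours Gas2l1 and Rasl10a, which share their peaks, at 22.8, Dapk3 at 24.1 and Hes1, a Notch target gene, at 26.3. Hes1 and Dapk3 likewise had H3K4me3 at an end in proliferating cells and none in neurons. Hes1 had CHD4 at the percentile 27.6 in neurons and 98.9 in proliferating cells. Nearest to Id1 were Ang and Rnase4, which share their peaks, at 16.6, the pair Bax and Ftl1 at 25.7, and Mkks at 26.6. For Id4, with 2 peaks to compare, Steap2, Dcaf12, Palm and Dpy19l4 were among the nearest and lay within 1.2.

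Among the partners of Id proteins, CHD4 was listed at an end of 4 of 12 E protein and class II bHLH genes in neurons and 1 of 12 in proliferating cells, against 9.95% and 11.8% of all genes. The proneural gene Neurog2 had it in both states, at the percentile 44.6 in neurons and 67.7 in proliferating cells. Tcf3, which encodes the E proteins E12 and E47, had CHD4 in neurons only, in a peak of 13050 bp at the percentile 6.18. Atoh1, the hair cell determinant, had it in neurons only at 77.2, and the neuronal factor gene Neurod2 in neurons only at 87.3, in a peak of 26150 bp. None of the 12 had p300 in neurons and 1, Neurog2, had it in proliferating cells (8.33%), against 1.24% and 8.44% of all genes. H3K4me3 marked 5 in neurons and 6 in proliferating cells, against 30.0% and 37.6% of all genes. It was present at all 3 E protein genes, Tcf3, Tcf4 and Tcf12, in both states, and at Olig2 in proliferating cells only.

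Genes of the BMP pathway, which acts upstream of Id1, Id2 and Id3, carried CHD4 at 2 of 24 in neurons (8.33%, against 9.95% of all genes) and 5 of 24 in proliferating cells (20.8%, against 11.8%). In both states these included the ligand gene Bmp7, at the percentile 46.6 in neurons and 88.2 in proliferating cells. They also included the inhibitory SMAD gene Smad6, at 5.52 in neurons and 75.0 in proliferating cells. The receptor genes Bmpr2 and Acvrl1 and the inhibitory Smad7 had it in proliferating cells only, at 12.8, 33.2 and 33.8. Of the 24 genes 0 had p300 in neurons and 2 in proliferating cells (8.33%), again Bmp7 and Smad6, against 1.24% and 8.44% of all genes. H3K4me3 marked the same 9 genes (37.5%) in both states, against 30.0% of all genes in neurons and 37.6% in proliferating cells, so none of them had the mark in proliferating cells only, as Id3 had.

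Of 12 other partners and regulators, 2 had CHD4 in neurons (16.7%) and 1 in proliferating cells (8.33%), against 9.95% and 11.8% of all genes. Myc, a regulator of growth, had it in both states at 53.9 in neurons and 58.8 in proliferating cells, and Egr1, an immediate early gene, in neurons only at 62.2. None had p300 in either state, against 1.24% of all genes in neurons and 8.44% in proliferating cells. H3K4me3 was listed at 5 of them in neurons (41.7%) and 6 of 12 in proliferating cells, against 30.0% and 37.6% of all genes, and Zeb2, a SMAD-binding repressor, had it in proliferating cells only. Gene ends in these 3 lists can be a start or an end of transcription, and the lists were not tested against each other.

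**Figure D5:**
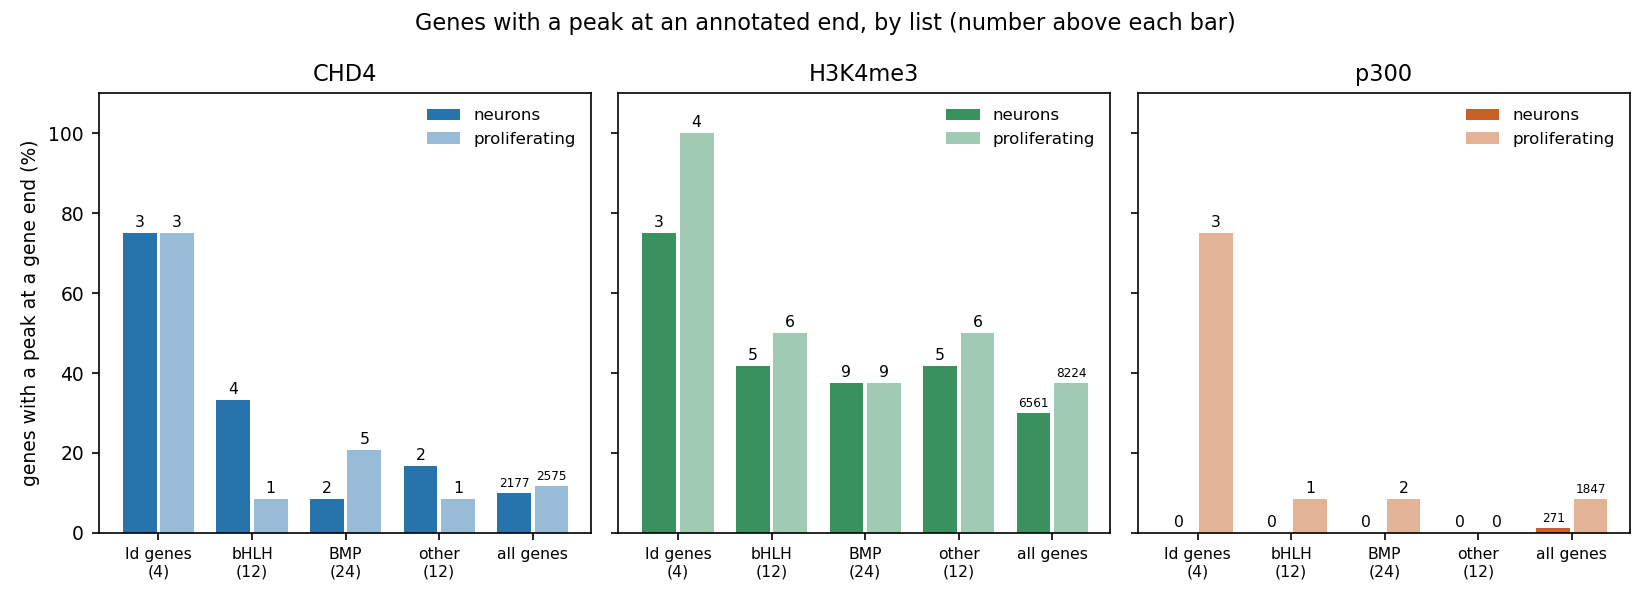
Bars give the percent of genes with a peak within 1 kb of an annotated end, neurons left of proliferating cells, for the 4 Id genes, 12 E protein and class II bHLH genes, 24 BMP pathway genes, 12 other partners and regulators, and all 21887 genes; the number of genes stands above each bar. The Id genes have 3 and 3 genes with CHD4, 3 and 4 with H3K4me3, and 0 and 3 with p300.

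A set of short motifs were searched on both strands in the printed 250 bases, and a match is only a description of these letters. GGCGCC, a GC-rich SMAD element of BMP targets, occurred once in each of Id2 and Id4 and in 9.59% of 32851 promoters of that length. CAGAC, the core bound by SMAD4, occurred at 2 places in Id3 and in 42.2% of promoters. One of these, read as GTCTG 64 to 68 bp before the start, is inside the capitals of neuron CHD4. The E-box CANNTG occurred once in Id2, as CAGCTG 191 to 196 bp before the start and inside the capitals, and in 66.2% of promoters. Id3 and Id4 had no match to it in this stretch, and E2f2 had 2, outside the capitals. The GC box GGGCGG was matched once in each of Id2 and E2f2, at 2 overlapping places in Id3 and at 5 places in Id4. Any match was found in 32.7% of promoters. TGACG, the core of a cAMP response element, was matched once in each of Id3, where it overlaps a CAGAC, and Id4 (17.8% of promoters), and TATAAA in none of them (12.4%). The GC content was 62.8% in Id2, 62.8% in Id3, 75.6% in Id4 and 56.4% in E2f2, with a median of 52.4% over all promoters.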

How the data were processed

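CUT&Tag peak lists for CHD4, H3K4me3 and p300 in 2 states were used, 1 library each. The lists have the 6 columns of SEACR output; columns 4 and 5 hold the total and highest signal as the authors deposited them, on a scale the labels do not state. Tools named in the submitters' processing notes are SEACR, Bowtie2 and deepTools, and the build is mm10; thresholds, use of IgG and duplicate removal are not given in the sources used here. Reads were 150 bp, per the labels' protocols. All but 6 coordinates are multiples of 50 bp, and they are printed counted from 1.

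Genes came from a RefSeq table of GRCm38.p6, which gives spans without strand. Transcript starts and strands came from the RefSeq promoter table, 32851 entries. Overlap meant at least 1 bp. Percentiles are ranks within a list, with ties taken at the higher rank. Signal was not compared between lists. Python 3.11.15, numpy 2.4.6, pandas 2.3.3, SciPy 1.17.1 and matplotlib 3.10.9 were used. Gene-end calls were tested on simulated data against bedtools 2.31.1 with no difference. With 1 library per group no test was run. The identity between member proteins, planned, was not computed, as no protein sequences were used here.

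The members and gene lists were chosen with earlier results of these data known. Named were the 4 members, protein-coding genes with a window peak at an end, list genes with CHD4 at an end in either state, and the 5 genes nearest to each member; some of the genes under these rules are not reported here. Other list genes, Bcl2l1 and the non-coding genes were named after their values were seen. Alternatives used the stronger 50% of each list, lists of equal size, at least 50% of the peak inside, gaps of 1 kb, gene-end windows of 500 bp and 2.5 kb, flanks of 20 kb and 100 kb, ranks by highest signal, width or mean signal, and backgrounds of genes of at most 10 kb or with H3K4me3.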

Additional observations from a re-analysis of the deposited data

How the results depend on the processing

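No paired analysis was possible because each group has 1 library. With 1 list per group, unknown depth and no IgG values, a missing peak cannot be told from a weak one. The number of Id genes with a peak at an end was the same under gene-end windows of 500 bp and 2.5 kb for each of the 6 lists. It changed when at least 50% of the peak had to lie inside the gene-end windows. The count was then 0 for CHD4 in each state, 1 for H3K4me3 in each state, and 0 for p300 in proliferating cells. The CHD4 peaks at Id1, Id2 and Id3, of 4400 to 10700 bp, were too wide for 50% to fit within 1 kb either side of an end. So were the H3K4me3 peaks at these genes and p300 at Id2 and Id3. For these peaks the outcome was fixed by width and does not show whether a call is stable. With the stronger 50% of the peaks, H3K4me3 was left at 1 Id gene in neurons, Id2, and CHD4 at 2, without Id3. With lists of equal size p300 was left at 1 in proliferating cells, and H3K4me3 at 3, without Id4.

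Peaks in the windows numbered 2 for neuron H3K4me3 with the stronger 50%, and 1 for proliferating p300 with equal lists. With flanks of 20 kb, 4 CHD4 and 4 p300 peaks were left in proliferating cells. With 100 kb, H3K4me3 had 7 in neurons and 9 in proliferating cells, and neuron p300 had 1, the one in Bcl2l1. Proliferating CHD4 peaks that overlap a neuron one numbered 3 with the stronger 50% and 2 with at least 50% covered; H3K4me3 ones overlapping the other state numbered 2 in neurons and 2 in proliferating cells with the stronger 50%.

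The median percentile of the Id genes depended on the ranking. By highest signal, width and mean signal in turn it was 12.4, 64.5 and 48.5 for CHD4 in neurons, and 38.0, 97.7 and 36.5 in proliferating cells. For H3K4me3 it was 6.56, 79.4 and 20.7 in neurons, and 39.3, 96.6 and 24.2 in proliferating cells, and for p300 in proliferating cells 32.3, 75.9 and 33.8. All 48 single-gene percentiles under these rankings differed from the main value. The rankings use different quantities, so these differences do not measure a spread of the main value.

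Among genes of at most 10 kb, the background share was 9.17% for CHD4 in neurons and 10.6% in proliferating cells, 21.8% for H3K4me3 in neurons and 27.5% in proliferating cells, and 8.95% for p300 in proliferating cells. Among genes with H3K4me3 it was 23.6% for CHD4 in neurons and 27.1% in proliferating cells, and 2.65% for p300 in neurons and 19.8% in proliferating cells.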

Other observations

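Peaks of different antibodies and states ended at the same 50-bp step at several Id genes. At Id3 the neuron CHD4 peak, the proliferating H3K4me3 peak and the proliferating p300 peak all ended at 136149750. At Id1 the neuron CHD4, neuron H3K4me3 and proliferating p300 peaks all ended at 152740200. Of 45 overlapping pairs of peaks from different lists in the Id windows, 8 shared an edge (17.8%), against 3420 of 26068 such pairs over all 15 pairs of lists (13.1%, from 7.07% to 18.0% by pair). The pairs share peaks and are not independent. The cause of the shared edges was not tested.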
